A study of Mus musculus with 4 samples.

Results

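Neurexins, neuroligins and protocadherins are surface proteins that hold cells together and organise contact sites. Neurexins sit on the sending side of a synapse and neuroligins on the receiving side, where they bind each other across the gap. Protocadherins are cadherin relatives that bind their own kind on the neighbouring cell, and several of them signal to the actin cytoskeleton. Pancreatic β cells have no classical synapses but use much of the same machinery for insulin granule docking, and neuroligin and neurexin proteins are known on them. The 8 genes described here were taken by symbol from the 51912 genes of the deposited table: the neurexin genes Nrxn2 and Nrxn3, the neuroligin genes Nlgn1, Nlgn2 and Nlgn3, and the non-clustered protocadherin genes Pcdh7, Pcdh9 and Pcdh17. Each symbol matched 1 row.

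RNA was sequenced from mCherry-positive cells sorted from islets of mouse neonates at day 13, with 2 libraries of Robo mutant cells and 2 of control cells. Robo mutant mice carried Robo1delta/delta and Robo2flx/flx, and control mice carried Robo1+/+ and Robo2+/+. All mice also had the mCherry reporter Rosa26-lsl-H2B-mCherry/+ and the recombinase Ucn3-Cre/+, whose expression follows Ucn3, a gene of maturing β cells, so that Robo2 deletion depends on the Cre whereas the Robo1 allele is given as deleted. The series title asks whether β cells need Roundabout receptors for islet architecture. The labels do not say whether libraries came from separate animals or from pools, and the tests therefore read the spread among 4 libraries, part of which may be technical.

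The libraries held 49593712 and 47788000 estimated counts in Robo mutant cells and 48217557 and 38886129 in control cells. Levels are given as CPM, estimated counts scaled to a common total, with library totals adjusted by the TMM method, and standard deviations (SD) over 2 libraries. Both targeted transcripts were lower in Robo mutant libraries, Robo1 at 21.7 ± 0.893 and 76.3 ± 39.3 CPM and Robo2 at 29.2 ± 4.98 and 96.8 ± 30.5 CPM in Robo mutant and control cells (SD, n = 2 each). All 10 β-cell markers had counts in every library, and their summed level was 227525 and 160290 CPM in Robo mutant libraries and 231397 and 197648 CPM in control libraries. Robo mutant library 2 stood apart by its acinar enzyme transcripts, a 14-gene list summing to 2143 and 39930.5 CPM in Robo mutant libraries 1 and 2 and to 4391 and 521 CPM in control libraries 1 and 2. Fewer genes were detected in Robo mutant cells, with 17751 and 17937 genes above 0 counts, against 19919 and 20918 in control cells. In bulk RNA, fewer cells of a type and less RNA per cell cannot be told apart.

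None of the genes that could be tested passed the threshold between genotypes by edgeR's quasi-likelihood test. Of the 8, 6 reached 10 counts in at least 2 libraries and were tested, and 0 of these 6 had an adjusted p under 0.05, against 0 of 16517 genes (0%) in all, where the smallest adjusted p was 0.680. With p under 0.05 before adjustment the count was again 0 of 6, against 1025 genes (6.21%), of which 329 were higher (1.99%) and 696 lower (4.21%), and DESeq2 called 0 of 6, against 151 genes (0.914%). The smallest unadjusted p among the 6 was 0.347, for Nlgn3. All 6 were below the median tested gene in abundance, which averaged 13.3 CPM over the 4 libraries, whereas the most abundant of the 8, Nlgn2, averaged 3.98 CPM. The remaining genes, Nlgn1 and Pcdh17, had too few counts to be tested.

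**Figure D1:**
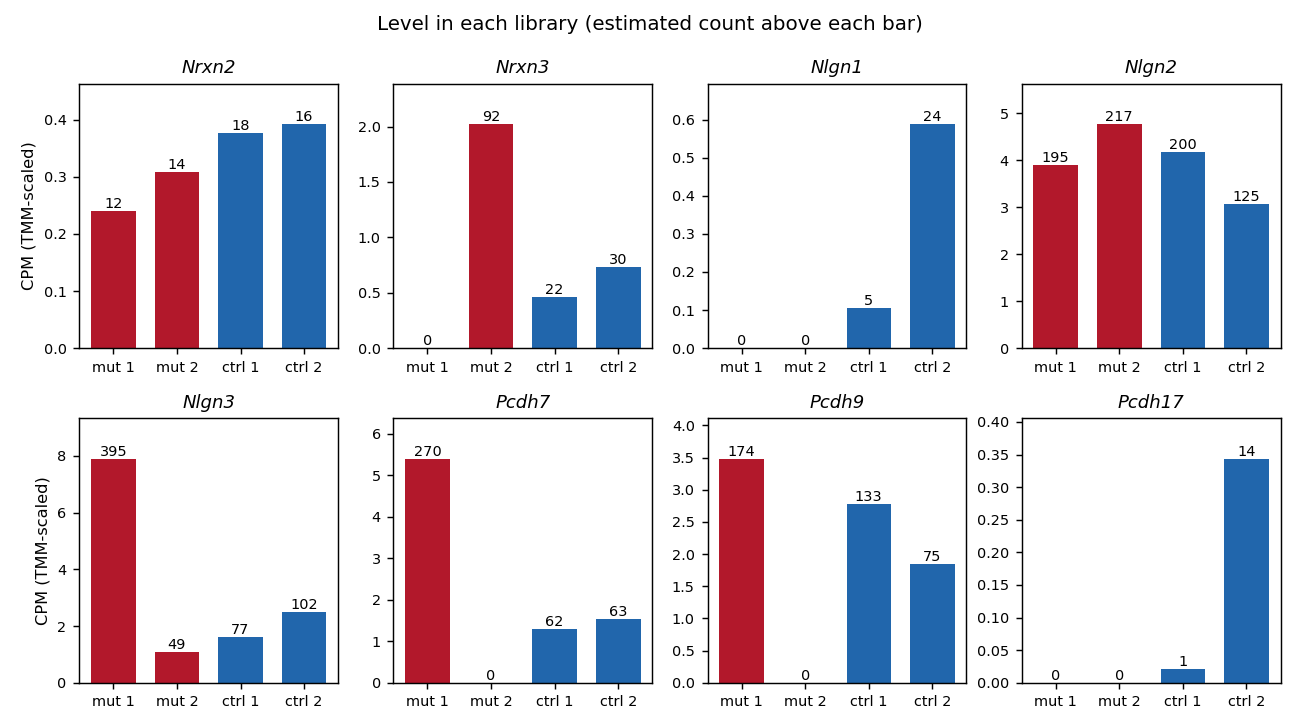
TMM-scaled CPM (linear axis, a scale of its own in each panel) of the 8 genes in Robo mutant libraries 1 and 2 (red) and control libraries 1 and 2 (blue), with the estimated count above each bar. Nlgn2 had 125 to 217 counts in every library, whereas Nlgn3, Pcdh7 and Pcdh9 were highest in Robo mutant library 1 and lowest in Robo mutant library 2.

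Nlgn2, the neuroligin of inhibitory synapses, had similar counts in all libraries. By the mean CPM of the 4 libraries it was the most abundant of the 8, though not in Robo mutant library 1. The gene (ENSMUSG00000051790, chromosome 11, 69823122 to 69837784, minus strand, GRCm38) had 195 and 217 counts in Robo mutant libraries 1 and 2, and 200 and 125 counts in control libraries 1 and 2. That is 3.90 and 4.77 CPM in Robo mutant cells and 4.18 and 3.07 CPM in control cells, so the genotypes overlapped. The means were 4.34 ± 0.616 CPM in Robo mutant cells and 3.62 ± 0.786 CPM in control cells (SD, n = 2 each). The log2 difference came to 0.26 ± 0.51 (SE, edgeR, adjusted p = 1.00).

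Nlgn3, which can pair with other neuroligins and occurs at both excitatory and inhibitory synapses, differed more between the Robo mutant libraries than between genotypes. The gene (ENSMUSG00000031302, chromosome X, 101299168 to 101325963, plus strand, GRCm38) had 395 and 49 counts in Robo mutant libraries 1 and 2, and 77 and 102 counts in control libraries 1 and 2. Its level was 7.90 and 1.08 CPM in Robo mutant cells and 1.61 and 2.503 CPM in control cells. The Robo mutant libraries lay on either side of both controls and stood 7.33-fold apart, while control library 2 was 1.56-fold above control library 1. The log2 difference came to 1.13 ± 1.07 (SE, edgeR, adjusted p = 0.999). It was 1.94 without Robo mutant library 2 and -0.93 without Robo mutant library 1, so the direction was set by Robo mutant library 1.

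Part of the Nlgn3 signal may be shared with another annotated locus. The transcript gene Gm21986 lies on the same strand and covers 3823 exonic bases of Nlgn3, 41.2% of its exons, so reads can be divided between them. Gm21986 had 101 and 1 counts in Robo mutant libraries 1 and 2, and 144 and 29 counts in control libraries 1 and 2. Added together, a choice made after the values were seen, the pair stood at 9.92 and 1.10 CPM in Robo mutant cells and at 4.62 and 3.21 CPM in control cells. The Robo mutant libraries still lay on either side of both controls, and the log2 change was 0.49 (edgeR, adjusted p = 1.00).

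Nlgn1, the neuroligin of excitatory synapses, was detected in control cells at low counts and had 0 counts in both Robo mutant libraries. The gene (ENSMUSG00000063887, chromosome 3, 25426215 to 26332460, minus strand, GRCm38) had 5 and 24 counts in control libraries 1 and 2, or 0.104 and 0.589 CPM. With 3 counts per library as the floor, Robo mutant cells were at least 5.50-fold below the observed mean of the controls, mostly through control library 2. Exact Poisson 95% intervals were 1.62 to 11.7 counts in control library 1 and 15.4 to 35.7 in control library 2. That of a count of 0 was 0 to 3.69, so the Robo mutant libraries overlapped control library 1. Such intervals cover counting error only, and are approximate for estimated counts.

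Among the neurexins, Nrxn2 was at the edge of detection and lower in both Robo mutant libraries. The gene (ENSMUSG00000033768, chromosome 19, 6418731 to 6544169, plus strand, GRCm38) had 12 and 14 counts in Robo mutant libraries 1 and 2, and 18 and 16 counts in control libraries 1 and 2. Its level was 0.240 and 0.308 CPM in Robo mutant cells and 0.376 and 0.393 CPM in control cells, without overlap. Counting intervals overlapped, with 6.20 to 21.0 counts for Robo mutant library 1 and 10.7 to 28.4 for control library 1 (exact Poisson, 95%). The log2 difference came to -0.48 ± 1.02 (SE, edgeR, adjusted p = 1.00). Both Robo mutant libraries lay below both controls in 1 of the 6 tested genes, this one, against 3375 of 16517 genes (20.4%), and 0 of the 6 lay above both controls, against 16.1%. With 2 libraries against 2, an exact permutation test cannot go below p = 0.333.

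The antisense gene Gm14964 overlaps 207 exonic bases of Nrxn2, 1.5% of its exons, and the libraries carry no strand information. It had 60 and 32 counts in Robo mutant libraries 1 and 2, and 22 and 16 counts in control libraries 1 and 2. It was thus higher in both Robo mutant libraries, opposite to Nrxn2, and reads from the shared stretch cannot be told apart.

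Nrxn3 had 0 counts in Robo mutant library 1 and was highest in Robo mutant library 2. The gene (ENSMUSG00000066392, chromosome 12, 88722876 to 90334935, plus strand, GRCm38) had 0 and 92 counts in Robo mutant libraries 1 and 2, and 22 and 30 counts in control libraries 1 and 2. Its level was 0 and 2.02 CPM in Robo mutant cells and 0.460 and 0.736 CPM in control cells. Robo mutant library 1 was at least 33.7-fold below Robo mutant library 2 and at least 9.96-fold below the control mean, with 3 counts as the floor, while Robo mutant library 2 was 3.38-fold above the control mean. Over all libraries the log2 difference came to 0.76 ± 2.28 (SE, edgeR, adjusted p = 1.00).

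Pcdh7, a protocadherin that binds a protein phosphatase through its cytoplasmic tail, had the opposite split. The gene (ENSMUSG00000029108, chromosome 5, 57717967 to 58133230, plus strand, GRCm38) had 270 and 0 counts in Robo mutant libraries 1 and 2, and 62 and 63 counts in control libraries 1 and 2. Its level was 5.40 and 0 CPM in Robo mutant cells and 1.295 and 1.55 CPM in control cells. The control libraries lay close together, Robo mutant library 1 was 3.80-fold above their mean, and Robo mutant library 2 was at least 21.5-fold below it and at least 81.9-fold below Robo mutant library 1. The log2 difference came to 0.93 ± 2.28 (SE, edgeR, adjusted p = 1.00).

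Pcdh9, another delta-type protocadherin, was likewise highest in Robo mutant library 1 and at 0 in Robo mutant library 2. The gene (ENSMUSG00000055421, chromosome 14, 93013410 to 93890679, minus strand, GRCm38) had 174 and 0 counts in Robo mutant libraries 1 and 2, and 133 and 75 counts in control libraries 1 and 2. Its level was 3.48 and 0 CPM in Robo mutant cells and 2.78 and 1.84 CPM in control cells. Robo mutant library 1 was 1.51-fold above the control mean, and Robo mutant library 2 was at least 35.0-fold below it. The log2 difference came to -0.41 ± 2.19 (SE, edgeR, adjusted p = 1.00).

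Pcdh17, a protocadherin that gathers actin regulators at cell contacts of growing axons, had almost no signal. The gene (ENSMUSG00000035566, chromosome 14, 84443563 to 84539002, plus strand, GRCm38) had 0 counts in both Robo mutant libraries, and 1 and 14 counts in control libraries 1 and 2. With 3 counts as the floor, Robo mutant cells were at least 2.89-fold below the observed mean of the controls. That mean was 0.182 ± 0.228 CPM (SD, n = 2) and came almost wholly from control library 2. The 1 count of control library 1 was itself under this floor, so Robo mutant cells could not be placed below that library.

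**Figure D2:**
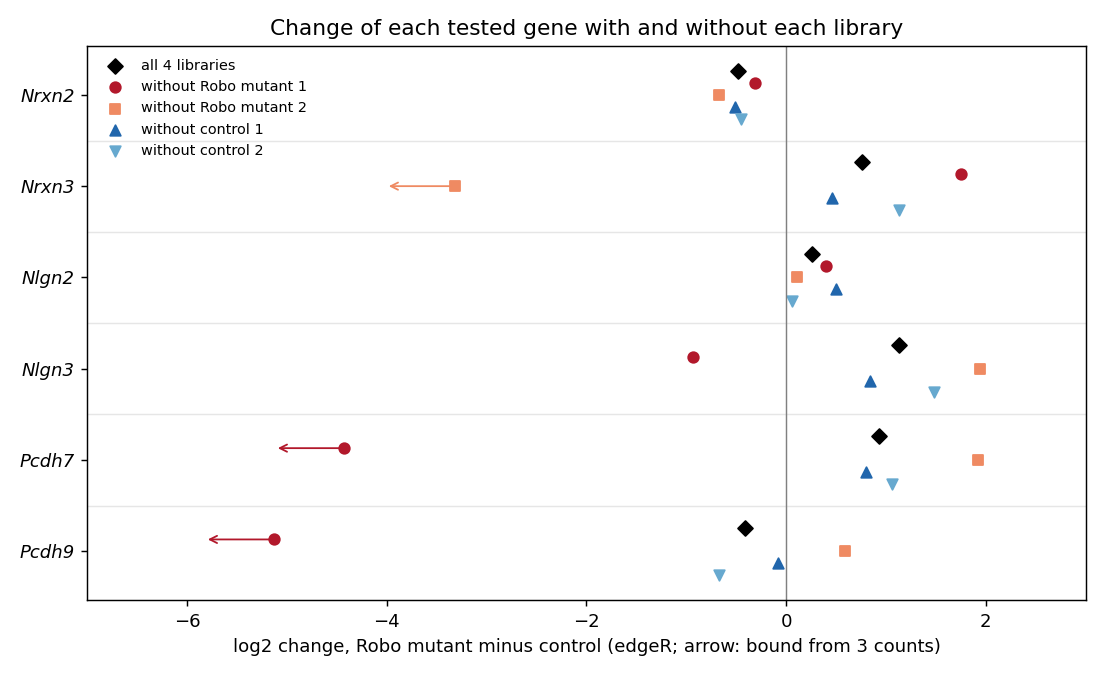
Fitted log2 change (x axis, Robo mutant minus control) of the 6 tested genes with all 4 libraries (black diamonds) and without each library in turn. Arrows start at the bound that 3 counts allow where the only Robo mutant library left has 0 counts. Nrxn2 stayed between -0.67 and -0.32 and Nlgn2 between 0.06 and 0.50, whereas Nrxn3, Nlgn3, Pcdh7 and Pcdh9 changed sign when 1 Robo mutant library was left out.

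A count of 0 in a single Robo mutant library was not rare among genes as scarce as Pcdh7 and Pcdh9. Of 2634 tested genes with a mean of 50 to 200 counts, 186 (7.06%) were at 0 in Robo mutant library 1 alone and 195 (7.40%) in Robo mutant library 2 alone, against 24 (0.911%) in control library 1 alone and 12 (0.456%) in control library 2 alone. In the range of 20 to 50 counts that holds Nrxn3, the shares of 1676 genes were 16.0% and 12.8% in Robo mutant libraries 1 and 2 and 2.86% and 0.477% in control libraries 1 and 2. These abundance ranges were chosen after the values were seen. Single zeros were thus more frequent in the Robo mutant libraries, and the part of this difference in the values of Nrxn3, Pcdh7 and Pcdh9 was not tested.

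Transcripts of other cell types also differed between the libraries. Stromal and pericyte markers, 12 genes, summed to 1122 and 14.7 CPM in Robo mutant libraries 1 and 2 and to 2465 and 721 CPM in control libraries 1 and 2. In Robo mutant library 2, where Pcdh7 and Pcdh9 were at 0, 6 of the 12 were at 0, among them Col1a1, Pdgfra and Pdgfrb, against 1 in Robo mutant library 1, 1 in control library 1 and 0 in control library 2. Cspg4 went the other way, at 0 in Robo mutant library 1 and control library 1 and highest in Robo mutant library 2, at 1.74 CPM. Of the 12, 10 were highest in control library 1, whereas Pcdh7 and Pcdh9 were highest in Robo mutant library 1. Acta2 was the 1 stromal marker highest in Robo mutant library 1, and its libraries had the order of Pcdh9. It stood at 163 and 0.0220 CPM in Robo mutant libraries 1 and 2 and 146 and 27.5 CPM in control libraries 1 and 2. The stromal sums were lowest in Robo mutant library 2, as Pcdh7 and Pcdh9 were, but put the libraries in the order of neither. The order of Pcdh9 differed from that of the sums only in the places of Robo mutant library 1 and control library 1. The part of stromal transcripts in the Pcdh7 and Pcdh9 values was not tested.

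Delta-cell markers differed among themselves. Of the 7 on the list, Lepr was at 0 in all libraries, and of the other 6, 2 were highest in Robo mutant library 1, 2 in Robo mutant library 2 and 2 in control library 2. The somatostatin gene Sst stood at 2145 and 803 CPM in Robo mutant libraries 1 and 2 and at 793 and 712 CPM in control libraries 1 and 2. Hhex, a transcription factor gene that delta cells need, stood at 30.2 and 8.88 CPM in Robo mutant libraries and at 9.76 and 12.9 CPM in control libraries. These are the 2 that were highest in Robo mutant library 1, as Nlgn3, Pcdh7 and Pcdh9 were. Rbp4, at 329 and 470.2 CPM in Robo mutant libraries and 258 and 254 CPM in control libraries, and Ghsr, at 1.92 and 6.88 CPM against 2.11 and 1.86 CPM, were highest in Robo mutant library 2. The somatostatin receptor gene Sstr3 stood at 114 and 131 CPM in Robo mutant libraries and 142 and 177 CPM in control libraries. It was lowest where Nlgn3, Pcdh7 and Pcdh9 were highest. Nrg2 stood at 0.260 and 0.0880 CPM in Robo mutant libraries and 0.0627 and 0.270 CPM in control libraries. The list summed to 2621 and 1420.06 CPM in Robo mutant libraries and to 1205 and 1158 CPM in control libraries, mostly Sst. The part of delta-cell transcripts in the Nlgn3, Pcdh7 and Pcdh9 values was not tested.

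Control library 2, the highest for Nlgn1 and Pcdh17, was also the highest for 8 of 12 endothelial markers and 6 of 11 neuron markers. The endothelial receptor gene Kdr had 107 counts there, the neuropeptide gene Vip 885 and the neuronal filament gene Prph 214, with 0 in the other libraries. Other markers of these lists went the other way. Egfl7 stood at 5.12 and 2.67 CPM and Eng at 3.86 and 1.25 CPM in control libraries 1 and 2, Vwf was highest in Robo mutant library 1 at 1.28 CPM, and Esam in Robo mutant library 2 at 5.63 CPM. Among neuron markers Nefm was lowest in control library 2, at 7.66 CPM, as was Elavl4, at 36.7 CPM. Of the 12 endothelial markers, 6 and 7 were at 0 in Robo mutant libraries 1 and 2, and 5 and 0 in control libraries 1 and 2, with sums of 9.46 and 6.62 CPM in Robo mutant cells and 13.6 and 22.7 CPM in control cells. Of the 11 neuron markers, 4 and 5 were at 0 in Robo mutant libraries 1 and 2, and 4 and 0 in control libraries 1 and 2. Their sums were 553 and 460 CPM in Robo mutant cells and 475 and 503 CPM in control cells, most of it from Th and Snap25, and put the 4 libraries in the order of Nlgn3 and Pcdh7. The order of control libraries 1 and 2 rested on 77 and 102 counts for Nlgn3 and on 62 and 63 for Pcdh7, with overlapping counting intervals. Such a shared order is a description only. The part of endothelial and neuron transcripts in the values of Nlgn1, Pcdh17, Nlgn3 and Pcdh7 was not tested.

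Alpha-cell markers summed to 19502 and 24271 CPM in Robo mutant libraries and 24037 and 11994 CPM in control libraries. These sums, and those of the acinar list given above, put the 4 libraries in the order of Nlgn2, with Robo mutant library 2 the highest and control library 2 the lowest. The Nlgn2 order of Robo mutant library 1 and control library 1 rested on 195 and 200 counts, with overlapping counting intervals. A shared order over 4 libraries is a description only, as every marker list was set against every member. The part of alpha-cell and acinar transcripts in the Nlgn2 values was not tested. Macrophage and leukocyte markers summed to 94.3 and 92.5 CPM in Robo mutant libraries and 73.1 and 36.7 CPM in control libraries, both Robo mutant sums above both controls. All 12 of these genes had a positive log2 change, with a median of 1.21, though only 4 were above both controls in both Robo mutant libraries, and none of the 8 members put the libraries in the order of these sums. PP-cell markers summed to 7474.0 and 5377 CPM in Robo mutant libraries and 6715 and 4631 CPM in control libraries, duct markers to 489 and 523 CPM and 478 and 565 CPM, and Schwann and glial markers to 147 and 165 CPM and 126 and 179 CPM.

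To compare genes with each other, CPM was divided by the length of all annotated exons in kilobases. Nlgn2 was the highest in control cells, at 0.626 ± 0.136 CPM per kb, followed by Pcdh9 at 0.340 ± 0.0978 and Nlgn3 at 0.222 ± 0.0682 CPM per kb (SD, n = 2 each). Pcdh7 followed at 0.134 ± 0.0167, Nrxn3 at 0.0474 ± 0.0155 and Nrxn2 at 0.0278 ± 0.000848 CPM per kb, with Nlgn1 at 0.0258 ± 0.0255 and Pcdh17 at 0.0140 ± 0.0176 CPM per kb (SD, n = 2 each). Among these neighbours in control cells the libraries of Nrxn2 and Nlgn1, and of Nlgn1 and Pcdh17, overlapped, and those of Pcdh9 and Nlgn3 nearly met, at 0.271 and 0.270 CPM per kb. In Robo mutant cells Nlgn2 was at 0.750 ± 0.106 and Nlgn3 at 0.484 ± 0.521 CPM per kb (SD, n = 2 each), so that these could not be placed in order. Pcdh9 at 0.257 ± 0.363, Pcdh7 at 0.255 ± 0.360 and Nrxn3 at 0.0803 ± 0.114 CPM per kb had a library at 0 each, and Nrxn2 stood at 0.0198 ± 0.00347 CPM per kb (SD, n = 2 each).

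Pcdh1, the most abundant of the other non-clustered protocadherin genes on the list, stood at 4.51 and 5.40 CPM per kb in Robo mutant libraries and at 5.18 and 4.13 CPM per kb in control libraries, above each of the 8 genes in every library.

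**Figure D3:**
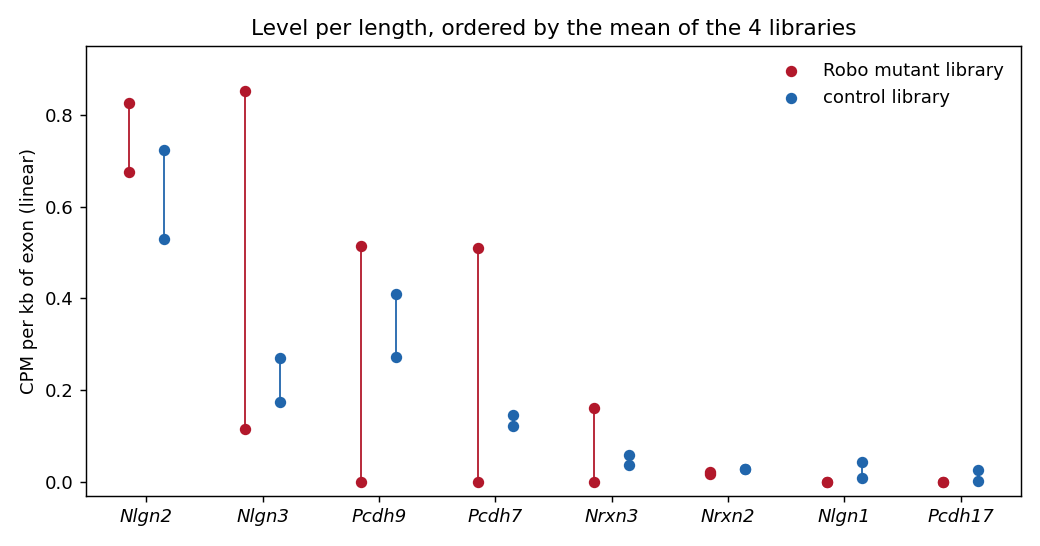
CPM per kb of annotated exon (linear axis) of the 8 genes, ordered by the mean of the 4 libraries, with Robo mutant libraries in red left of control libraries in blue; lines join libraries of a genotype. For Nlgn3, Pcdh9, Pcdh7 and Nrxn3 the Robo mutant libraries are the lowest and the highest of the 4, with both control libraries between them.

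Members of a family shared sequence only in part. The longest Nlgn3 transcript matched Nlgn1 at 71.2% identity over 1470 bases, Nlgn2 matched Nlgn1 at 68.5% over 1710 bases, and Nrxn2 matched Nrxn3 at 69.3% over 3417 bases. No transcript of another gene matched any of the 8 at 95% identity over 80% of its length (0 genes each). Shorter shared stretches, such as the 3823 exonic bases of Nlgn3 in Gm21986, were not counted, so shared reads remain possible. Gene-level counts do not separate the long and short neurexin forms, which start from different promoters.

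Profiles over the 4 libraries were compared by the distance between centred log2(CPM + 1) values among 90 other tested genes of the lists. The nearest to Nlgn3 were Cbln4, the gene of a secreted neurexin ligand, at a distance of 0.471, and Pcdh7 at 0.634, where the Nlgn3 profile itself lay 1.60 from a flat one. Cbln4 stood at 5.46 and 1.36 CPM in Robo mutant libraries and at 1.57 and 2.13 CPM in control libraries. Pcdh7 was nearest to Nlgn3 and then to Pcdh9 (0.880, against 1.90 from flat), and Pcdh9 to Cntnap2, a neurexin-superfamily gene (0.339, against 1.68 from flat), and Fat1 (0.651). Nrxn3 was nearest to Il1rap (0.374, against 1.15 from flat) and Wasf1 (0.522), Nlgn2 to Pcdh1 (0.124, against 0.366 from flat) and Lrrc4 (0.177), and Nrxn2, almost flat on this scale at 0.133, to Abi1 (0.0832) and Clstn1 (0.126). Distances over 4 libraries are a description only.

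Partner genes lay on both sides of 0. Over the 6 tested of the 8 genes 4 changes were positive and 2 negative, with a median log2 change of 0.51, against -0.01 over all tested genes. This median leaves out Nlgn1 and Pcdh17, and it was -0.62 without Robo mutant library 1.

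Extracellular partners of neurexins and neuroligins had 7 positive and 7 negative values among 14 tested of 26 genes, with a median of 0.04 and 0 genes at an unadjusted p under 0.05. The latrophilin genes Adgrl2 (log2 change 0.57) and Adgrl3 (0.48) and Cbln4 (0.88) had the smallest p besides the dystroglycan gene Dag1 (-0.18), which was abundant, at 171 to 228 CPM over the 4 libraries. The calsyntenin gene Clstn1, the most abundant of them, was at 233 and 272 CPM in Robo mutant libraries and at 276 and 261 CPM in control libraries.

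Intracellular scaffolds had 13 positive and 15 negative values among 28 tested of 29 genes, with a median of -0.06. Before adjustment 2 genes had a p under 0.05, both lower, against 6.21% of all genes. One of them, the postsynaptic scaffold gene Dlg2, had 0 counts in both Robo mutant libraries and 108 and 34 in control libraries 1 and 2, at least 24.5-fold lower. Genes at 0 in both Robo mutant libraries, 304 of all those tested (1.84%), passed the filter on low counts only through the controls, so they had to be lower and their p is no support. For Dlg2 the adjusted p was 0.680 with edgeR and 0.0339 with DESeq2. A second row with the symbol Dlg2 had 0 and 113 counts in Robo mutant libraries and 11 and 6 in control libraries, so reads may be divided and both values are uncertain. Mpp2 (-0.27) and Dlg3 (0.27) had the next smallest p, and the abundant Epb41l3 (0.15) and Sdcbp (0.02) differed by less than their standard errors of 0.26 and 0.13.

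Other non-clustered protocadherins and large cadherin relatives had 3 positive and 7 negative values among 10 tested of 18 genes, with a median of -0.22. Before adjustment 3 had a p under 0.05, all lower and all at 0 counts in both Robo mutant libraries, so that the filter had fixed their direction. Pcdh18 had 235 and 51 counts in control libraries 1 and 2 (at least 48.9-fold lower in Robo mutant cells), Fat4 had 181 and 49 (at least 39.6-fold) and its ligand gene Dchs1 had 67 and 29 (at least 16.8-fold). DESeq2 gave an adjusted p of 0.0014 for Pcdh18 and 0.0032 for Fat4, and edgeR one of 0.680 for each of the 3. Stromal markers summed to 1122 and 14.7 CPM in Robo mutant libraries 1 and 2 and to 2465 and 721 CPM in control libraries 1 and 2, and their part in the values of these genes was not tested. Celsr2, a planar polarity cadherin gene, had a log2 change of -0.74 and Fat1 one of -0.12, neither passing the test.

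Other synaptic adhesion genes had 8 positive and 11 negative values among 19 tested of 32, with a median of -0.09, and 2 with an unadjusted p under 0.05, against 6.21% of all genes. Both were at 0 in Robo mutant cells, a direction the filter had fixed. Slitrk5 had 0 counts in both Robo mutant libraries and 37 and 38 in control libraries, and the teneurin gene Tenm1 had 0 in both and 16 and 20 in control libraries, at least 13.5-fold and 6.55-fold lower. Lrfn4 (log2 change -0.34) and Tenm3 (-0.19) were lower in both Robo mutant libraries, and the receptor phosphatase gene Ptprf, the most abundant, had a log2 change of -0.09 (none passing the test).

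Intracellular partners of protocadherins had 5 positive and 8 negative values among 13 tested of 13, with a median of -0.06 and 0 genes at an unadjusted p under 0.05. These include the WAVE complex, which drives branched actin growth and binds several protocadherin tails. Nckap1, its scaffold gene, was at 404 and 416 CPM in Robo mutant libraries and at 482 and 526 CPM in control libraries, a log2 difference of -0.30 ± 0.14 (SE, edgeR, unadjusted p = 0.0851). Cyfip2 (-0.21), Abi1 (-0.14) and Abi2 (0.17) differed less.

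**Figure D4:**
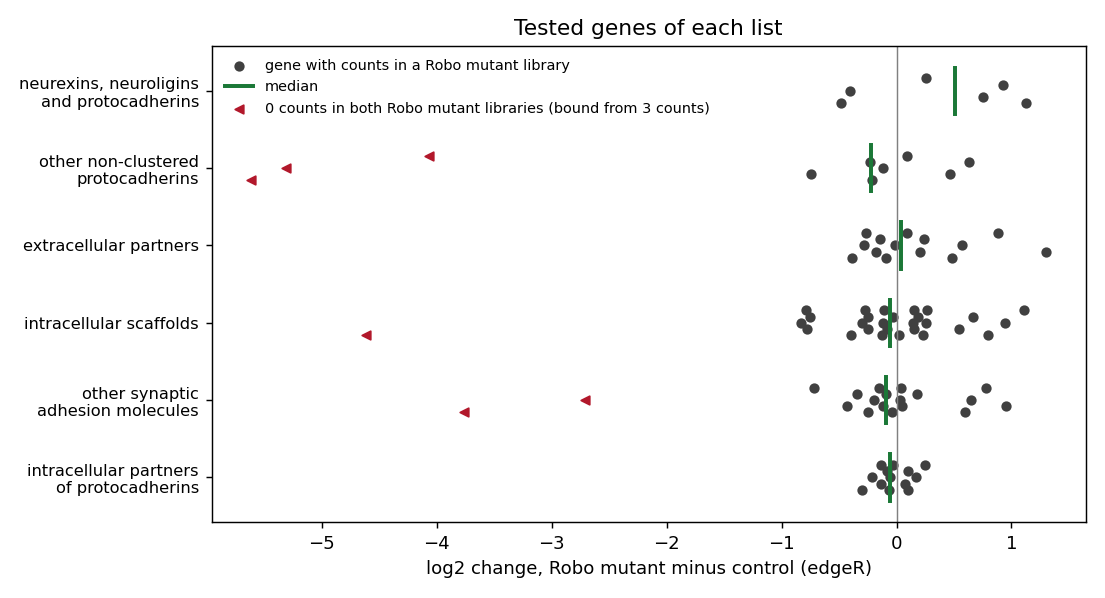
Fitted log2 change (x axis, Robo mutant minus control) of each tested gene in the 8-gene group and in 5 lists of relatives and partners, with the median as a green line. Red triangles are genes at 0 counts in both Robo mutant libraries, drawn at the bound that 3 counts allow; the medians of the lists lie between -0.22 and 0.04, and that of the 6 tested genes at 0.51.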

How the data were processed

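The submitters' processing notes list STAR 2.5.3a, RSEM 1.3.0, edgeR 3.16.5 and bcl2fastq 2.20.0.422 with build GRCm38. Which annotation was used, and what edgeR did, is not given in the sources used here. Per gene, the deposited table gives RSEM estimated counts in whole numbers. Its name calls them normalized, but the column totals differ, so they were treated as estimated counts and rounded; an earlier rescaling would make counting intervals approximate. Libraries were made with the SMART-Seq v4 and Nextera XT kits, per the labels' protocols, which do not mark strand.

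The 16517 of 51912 genes that reached 10 counts in 2 or more libraries were scaled by TMM and tested two-sided, Robo mutant against control, with glmQLFit and glmQLFTest of edgeR 4.0.16 in R 4.3.3, and adjusted by Benjamini-Hochberg over all tested genes with a threshold of 0.05. The edgeR test gives no standard error. The SE given with a log2 change is its absolute value divided by the square root of the test's F value. DESeq2 1.42.0 and limma 3.58.1 served as alternatives. The fit was run on simulated counts with known changes, planted only in genes at or above the median abundance and with a capped spread. All 6 tested members were below that median, so the simulation says nothing about genes as scarce as these. The members and lists were chosen with earlier results of these data known, and marker lists were chosen with them. The text names all 8 members, from each list the 4 tested genes of smallest p and the 2 most abundant, the 2 nearest profiles of each member, and selected markers, some chosen after their values were seen (all delta markers, Kdr, Egfl7, Eng, Vwf, Esam, Vip, Prph, Nefm, Elavl4, Th, Snap25 and stromal genes). Of the genes the rule selects, 2 are not reported here. Gene models came from GENCODE M21 (GRCm38), which held 51633 of the 51912 identifiers. Transcripts were compared with BLAST 2.17.0. Where a group had 0 counts, folds are bounds from 3 counts per library.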

Additional observations from a re-analysis of the deposited data

How the results depend on the processing

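Of 66 values of the 6 tested members under other settings, 59 kept the direction of the reported fit and 0 passed the threshold, the smallest adjusted p being 0.134. With voom of limma, which takes logs of single counts, the log2 changes of Nrxn3 and Pcdh7 were -2.17 and -2.35, and with quantile normalization that of Nrxn2 was 0.12; the cause was not tested. Leaving out each library in turn gave -7.79 to 1.76 for Nrxn3, -0.93 to 1.94 for Nlgn3, -8.99 to 1.93 for Pcdh7 and -9.69 to 0.59 for Pcdh9, where the extreme negative values are fitted against a lone library at 0 and depend on the prior count. A lone library is assumed to vary like the other genotype. The number of all genes called was 151 with DESeq2 and 0 to 1 without each library, against 0, and the number of members called was 0 throughout.

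The median of the members was -1.33 with voom, -0.077 without a filter, where Nlgn1 and Pcdh17 enter, and -0.62 to 0.56 without each library. Members without overlap between genotypes numbered 3 without a filter, where Nlgn1 and Pcdh17 enter with 0 counts in both Robo mutant libraries. They numbered 0 with a mean of at least 20 counts, which removes Nrxn2. With the reported filter the number was 1, against 6038 of 16517 genes (36.6%) without overlap in either direction. The share of all genes was not computed for the other settings, so these numbers are no result about the members. Without a filter more partner genes were counted, with 13 lower among other non-clustered protocadherins, 11 higher and 11 lower among extracellular partners and 19 lower among other synaptic adhesion genes. With equal totals 5 of the last list were higher. Without each library in turn, other non-clustered protocadherins had 3 to 5 higher and 2 to 7 lower, extracellular partners 4 to 8 lower, other synaptic adhesion genes 5 to 11 higher and intracellular partners of protocadherins 2 to 6 higher. With coding length in place of exon length 4 of the 8 members changed rank by the mean of all 4 libraries, and 5 in control cells.

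No paired analysis was possible because the labels give no replicate numbers shared by the genotypes. Depth limits the members with few counts: Nrxn2, Nlgn1 and Pcdh17 had at most 18, 24 and 14 counts in any library.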
